A study of Mus musculus with 3 samples.

Results

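The stress keratins Krt6a, Krt6b, Krt16 and Krt17 were examined in mouse keratinocytes of 3 genotypes. These 4 genes were taken by symbol, as the keratins known for appearing in wounded and hyperproliferative epidermis. They are 4 of the 54 keratin genes among the 41214 gene identifiers of the count tables. All 4 reached 1 CPM (a count scaled to library size) in at least 1 library and so belonged to the 11872 genes that were compared. The study's cultures were a knockout labelled ARPC4 ko, cells labelled Nrf2-EGFP, which the study's design describes as expressing a fusion of Nrf2 with the green fluorescent protein EGFP, and a wild type labelled wt. ARPC4 belongs to the Arp2/3 complex, the nucleator of branched actin networks, and Nrf2, encoded by Nfe2l2, is a transcription factor of antioxidant genes. All 3 cultures were of the C57BL/6 strain, had been immortalised with SV40 and were growing exponentially without further treatment. The series title places them in work on Arp2/3 loss, Nrf2 and a psoriasis-like disease of the epidermis. The sources used here do not state how the Arpc4 allele was removed, which promoter drove the fusion or whether each culture came from 1 clone, although the title of the knockout library holds the word Cre and that of the Nrf2-EGFP library the word High.

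Keratins build the intermediate filaments of epithelial cells as obligate pairs of a type II and a type I protein. Basal keratinocytes of resting epidermis pair Krt5 with Krt14, while Krt6a and Krt6b (type II) and Krt16 and Krt17 (type I) are normally kept to hair follicles, nail beds, palms, soles and oral lining, and are switched on in epidermis after wounding, in culture and in psoriasis. In humans, mutations in any of the corresponding 4 genes cause pachyonychia congenita, a disorder of nails and sole skin, and NRF2 has been reported to activate stress keratin genes in human keratinocytes.

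Each genotype had 1 library, with 23033863 gene counts for ARPC4 ko, 25723959 for Nrf2-EGFP and 22924294 for wt. No difference described here has a replicate check. No test of genotypes was made, and the ranges in parentheses are 95% intervals that cover counting error only. CPM, the usual scaled unit of RNA sequencing, are counts divided by library sizes that were corrected with TMM factors. A difference passed the size rule where the log2 ratio of CPM + 0.5 was 1 or more in either direction and the scaled counts differed beyond their exact interval. The keratinocyte identity of the cultures was checked with 9 markers, all of which had at least 1 CPM in every library. Their summed level was 13501 CPM in ARPC4 ko, 18136 CPM in Nrf2-EGFP and 23239 CPM in wt, and Krt5 and Krt14 made up most of it. Fibroblast markers summed to 4.39 CPM in ARPC4 ko, 2.64 CPM in Nrf2-EGFP and 1.60 CPM in wt, with Col1a2, Col3a1 and Dcn at 0 in each. Immune cell markers stayed between 5.60 and 7.34 CPM in sum and melanocyte markers between 2.20 and 5.47 CPM. Of 8 Merkel cell markers, 3 reached 1 CPM, and the list summed to 608 CPM in ARPC4 ko, 850 CPM in Nrf2-EGFP and 666 CPM in wt, nearly all of it Krt8 and Krt18, while Krt20 and Atoh1 were at 0 in each library. The 10 markers of the hair follicle companion layer and inner sheath summed to 52.0 CPM in ARPC4 ko, 36.3 CPM in Nrf2-EGFP and 73.9 CPM in wt, with Krt71, Krt72 and Krt25 at 0 in each. The 2 that passed the filter, Gata3 and Tchh, were both lower by the rule in Nrf2-EGFP than in wt (2.09% of all genes compared). Neither passed in ARPC4 ko against wt. Of the 8 endothelial markers, Flt1 alone held most of the sum of 54.6 CPM in ARPC4 ko, 62.9 CPM in Nrf2-EGFP and 27.6 CPM in wt. In ARPC4 ko against wt, 3 of the 9 keratinocyte markers were lower by the rule (1.98% of all genes compared). In the same comparison 1 fibroblast, 1 Merkel cell and 1 endothelial marker were higher (4.83% of all genes compared). In Nrf2-EGFP against wt, 1 Merkel cell and 1 endothelial marker were higher (3.51% of all genes compared). The part of any of these marker levels in the results was not tested.

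The targeted genes were read first. Arpc4 had 61.5 CPM in the library labelled ARPC4 ko, 97.8 CPM in that labelled Nrf2-EGFP and 94.0 CPM in that labelled wt. It was thus 1.53-fold lower (1.43 to 1.64) in ARPC4 ko than in wt, short of the 2-fold rule, and which part of the gene was deleted is not stated in the sources used here. Nfe2l2 had 180.8 CPM in the library labelled ARPC4 ko, 165.5 CPM in that labelled Nrf2-EGFP and 224.2 CPM in that labelled wt. Its count in the library labelled Nrf2-EGFP was therefore 1.35-fold lower (1.30 to 1.41) than in wt, in the direction opposite to the label, and how much of a fusion construct this gene's count would hold is not known. For this reason the cultures are called throughout by their labels.

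All 4 stress keratins fell past the size rule in the library labelled ARPC4 ko relative to that labelled wt, by between 2.04-fold and 11.7-fold. In the library labelled Nrf2-EGFP, Krt6b and Krt16 were lower than in wt by more than the rule, while Krt6a and Krt17 were lower by about the same smaller factor, 1.57-fold and 1.56-fold. Every member had its highest level in the library labelled wt and its lowest in that labelled ARPC4 ko, although for Krt6b the lower pair of libraries was not told apart by its counts. Over all genes compared, 1.98% passed the rule as lower in ARPC4 ko than in wt and 2.09% in Nrf2-EGFP than in wt. In bulk RNA, fewer cells that express a keratin and less of its RNA per cell cannot be told apart. Both comparisons use the same wt library, so a deviation of that culture would enter both.

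**Figure D1:**
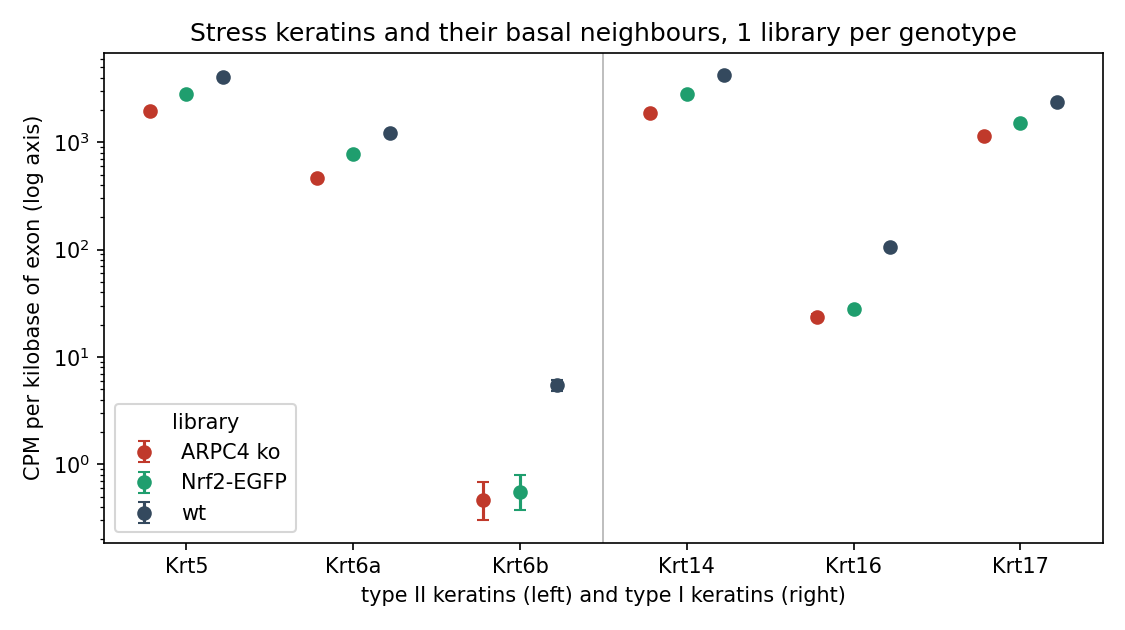
Level of each stress keratin and of the basal keratins Krt5 and Krt14 in CPM per kilobase of annotated exon (log axis), 1 point per library, with ARPC4 ko, Nrf2-EGFP and wt from left to right within each gene and bars for 95% counting intervals, which are smaller than the points except for Krt6b. Krt6b sits between 0.464 and 5.44 and Krt17 between 1152 and 2346, and wt is highest for every gene shown.

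Levels were compared between genes per kilobase of exon, since the transcripts differ in length. Krt17 was the most abundant member in every library, with 1152 CPM per kilobase in ARPC4 ko, 1503 in Nrf2-EGFP and 2346 in wt. Krt6a followed with 464 CPM per kilobase in ARPC4 ko, 772 in Nrf2-EGFP and 1209 in wt. Krt16 had 23.5 CPM per kilobase in ARPC4 ko, 27.6 in Nrf2-EGFP and 106 in wt, and Krt6b was lowest with 0.464, 0.555 and 5.44 in the same libraries. The order Krt17, Krt6a, Krt16, Krt6b was the same in each library, and neighbours in that order were separated beyond their counting intervals. The same whole-gene counts were also divided by a length made only of stretches of read length found at no other annotated gene. Krt6a then had 926 CPM per kilobase in ARPC4 ko, 1540 in Nrf2-EGFP and 2412 in wt. These values were below those of Krt17, with 1212 in ARPC4 ko, 1582 in Nrf2-EGFP and 2469 in wt. By that length Krt6b and Krt16 were also over 1.5 times higher, and the order of the members was the same. The 2 more abundant members were thus 1 type II and 1 type I keratin, and so were the 2 less abundant members. The latter were not alike in level, with 106 CPM per kilobase for Krt16 and 5.44 for Krt6b in wt. By CPM, Krt17 ranked 18 in ARPC4 ko, 18 in Nrf2-EGFP and 7 in wt among the genes compared, and Krt6a ranked 45, 27 and 9 in the same libraries.

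Krt6a (ENSMUSG00000058354) lies on the minus strand of mouse chromosome 15, from 101689910 to 101694307 in mm10, next to Krt5 in the type II keratin cluster. Its protein is the main inducible type II keratin of mouse wound-edge epidermis. The gene had 27067 counts in the library labelled ARPC4 ko, 46637 in that labelled Nrf2-EGFP and 65882 in that labelled wt, or 1122, 1867 and 2924 CPM in the same order. The 3 libraries formed a ladder with wide gaps relative to counting error. Krt6a was 2.61-fold lower (2.57 to 2.64) in ARPC4 ko than in wt, a log2 fold of -1.38 that passed the rule. Between Nrf2-EGFP and wt the log2 fold was -0.65, which did not pass, and between ARPC4 ko and Nrf2-EGFP it was -0.73, a 1.66-fold difference (1.64 to 1.69) that did not pass either.

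Krt6b (ENSMUSG00000023041), from 101676023 to 101680287 on the same strand, is the other Krt6 copy, and its protein pairs with the same type I partners. It had 25 counts in the library labelled ARPC4 ko, 31 in that labelled Nrf2-EGFP and 274 in that labelled wt. In CPM these were 1.04 (0.671 to 1.53), 1.24 (0.843 to 1.76) and 12.2 (10.8 to 13.7) in the same order. The wt library stood alone, and the intervals of the other libraries overlapped. Krt6b was 11.7-fold lower (7.78 to 18.5) in ARPC4 ko than in wt and 9.80-fold lower (6.75 to 14.7) in Nrf2-EGFP than in wt, and both passed the rule. With 0.5 CPM added, which understates the difference of a gene with so few counts, the log2 folds were -3.04 and -2.86. Between ARPC4 ko and Nrf2-EGFP the difference was 1.20-fold with an interval from 0.684 to 2.12, so no difference was detectable at this depth.

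Reads of 65 bases can separate Krt6a from Krt6b only in part. Their coding sequences, aligned over 1659 bases, differed at 37 and were 97.8% identical, with a longest identical run of 280 bases. Of 2214 windows of 65 bases along the Krt6a transcript, 1002 (45.3%) also occurred in another annotated gene, 867 of them in Krt6b. For Krt6b, 956 of 2171 windows (44.0%) were shared. The following stretches of 65 bases from the coding strand, taken from GENCODE M21 transcripts on mm10, show both extremes, a stretch of exon 1 with no difference and the stretch of exon 4 with the most differences (11). Capitals mark the bases at which the genes differ.
Krt6a exon 1, minus strand, chr15:101694151-101694215: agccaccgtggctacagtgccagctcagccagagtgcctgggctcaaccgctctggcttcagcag
Krt6b exon 1, minus strand, chr15:101680126-101680190: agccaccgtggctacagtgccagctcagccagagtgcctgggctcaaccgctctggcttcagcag
Krt6a exon 4, minus strand, chr15:101692490-101692554: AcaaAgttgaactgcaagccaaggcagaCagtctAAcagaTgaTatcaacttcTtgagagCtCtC
Krt6b exon 4, minus strand, chr15:101678309-101678373: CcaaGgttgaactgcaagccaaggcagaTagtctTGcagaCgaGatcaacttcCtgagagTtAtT
A read from the exon 1 stretch has no base that assigns it to either gene, whereas a read from the exon 4 stretch has 11. Of 1566 coding windows placed side by side, 55.4% were identical in both genes and 82.5% differed at no more than 2 bases. Counting both genes together left the Krt6a result in place, with a log2 fold of the sum of -1.39 in ARPC4 ko and of -0.65 in Nrf2-EGFP, each against wt. The ratio of Krt6b to Krt6a counts, from which the library scaling cancels, was 0.0924 per 100 in ARPC4 ko, 0.0665 per 100 in Nrf2-EGFP and 0.416 per 100 in wt. It was therefore 4.50 times lower (2.99 to 6.78) in ARPC4 ko than in wt and 6.26 times lower (4.31 to 9.07) in Nrf2-EGFP than in wt. These intervals do not cover Krt6a reads placed at Krt6b, and how many of the few Krt6b counts were such reads was not tested. Alignments to chromosome 15 that were not unique, and so were counted to no gene, amounted to 3937 CPM in ARPC4 ko, 5217 CPM in Nrf2-EGFP and 6579 CPM in wt when scaled like gene counts.

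Krt16 (ENSMUSG00000053797) lies on the minus strand of chromosome 11, from 100246091 to 100248902, between Krt14 and Krt17 in the type I cluster. Its protein pairs with the Krt6 proteins, and mice that lack it develop thickened paw skin. The gene had 886 counts in the library labelled ARPC4 ko, 1081 in that labelled Nrf2-EGFP and 3738 in that labelled wt, or 36.7, 43.3 and 165.9 CPM in the same order. As for Krt6b, the wt library stood far above the others. Krt16 was 4.52-fold lower (4.197 to 4.87) in ARPC4 ko than in wt, a log2 fold of -2.16. It was 3.83-fold lower (3.58 to 4.11) in Nrf2-EGFP than in wt, a log2 fold of -1.93, and both passed the rule. ARPC4 ko and Nrf2-EGFP differed by 1.18-fold (1.08 to 1.29), well short of the rule, and with total counts the interval of the ratio, 0.837 to 1.001, included 1. Of its 1501 windows of 65 bases, 465 (31.0%) occurred elsewhere, 345 of them in the neighbouring pseudogene Gm11597, which was listed at 0 counts in every library, and others in Krt14.

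Krt17 (ENSMUSG00000035557) follows on the same strand from 100256217 to 100261029. Its protein is made early in developing skin appendages and at wound edges, and in mouse keratinocytes it binds the 14-3-3 adaptor stratifin and supports protein synthesis and growth. The gene had 43118 counts in the library labelled ARPC4 ko, 58246 in that labelled Nrf2-EGFP and 81999 in that labelled wt, or 1787, 2331 and 3639 CPM in the same order. The libraries formed a ladder like that of Krt6a with smaller steps. Krt17 was 2.04-fold lower (2.01 to 2.06) in ARPC4 ko than in wt, a log2 fold of -1.03 that only just passed. With upper-quartile factors it was -0.99 and with total counts alone -0.93, and neither passes. Krt17 was 1.56-fold lower (1.54 to 1.58) in Nrf2-EGFP than in wt and 1.30-fold lower (1.29 to 1.32) in ARPC4 ko than in Nrf2-EGFP. Only 13 of its 1487 windows (0.874%) occurred in another gene, Krt14, so its count was the least affected by shared sequence among the members.

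**Figure D2:**
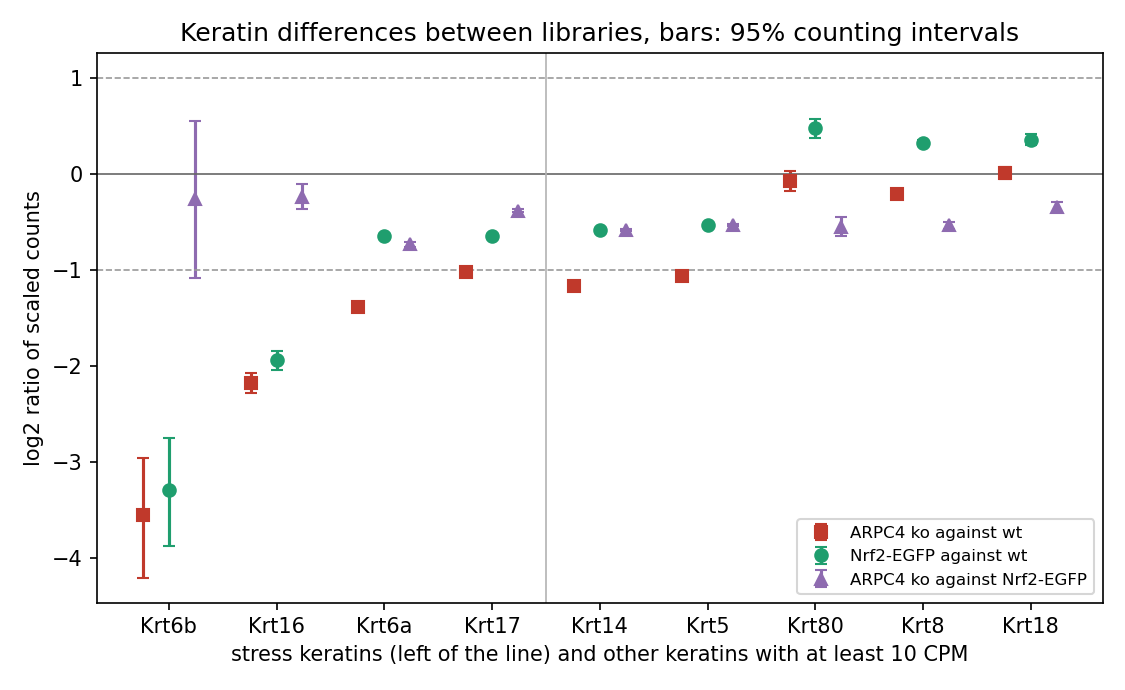
Log2 ratio of scaled counts, without a pseudocount, for the 4 stress keratins and for every other keratin with at least 10 CPM in a library, in ARPC4 ko against wt, Nrf2-EGFP against wt and ARPC4 ko against Nrf2-EGFP. Bars are exact 95% counting intervals and dashed lines mark 2-fold. Krt6b and Krt16 lie lowest in both comparisons with wt and near 0 between ARPC4 ko and Nrf2-EGFP, whereas Krt6a, Krt17, Krt14 and Krt5 are lowest in ARPC4 ko against wt.

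In counts of members, 4 of 4 were lower by the rule in ARPC4 ko than in wt (background 1.98%), 2 of 4 in Nrf2-EGFP than in wt (background 2.09%) and 0 of 4 in ARPC4 ko than in Nrf2-EGFP (background 0.901%). None was higher in any comparison, where the background was 4.83% for ARPC4 ko against wt, 3.51% for Nrf2-EGFP against wt and 2.08% for ARPC4 ko against Nrf2-EGFP. The members' median log2 fold was -1.77 for ARPC4 ko against wt and -1.29 for Nrf2-EGFP against wt, and it was -0.31 for ARPC4 ko against Nrf2-EGFP, beside medians of 0.00 over all genes compared. Ordered from the lowest log2 fold in ARPC4 ko against wt, Krt6b was gene 8 of 11872, Krt16 gene 32, Krt6a gene 109 and Krt17 gene 226. In Nrf2-EGFP against wt, Krt6b was gene 7 and Krt16 gene 50, but Krt6a was gene 563 and Krt17 gene 569. Log2 folds of genes with few counts carry more counting error, so the abundant members were also ranked among genes of high level in wt. Choosing genes by their level in wt, the denominator of these log2 folds, favours genes that are lower in the other library. Among the 74 genes with at least 1000 CPM in wt, the 4 lowest log2 folds in ARPC4 ko against wt belonged to Krt6a, Krt14, Krt5 and Krt17, where the median of the 74 was -0.30. In Nrf2-EGFP against wt, Krt6a was gene 4 and Krt17 gene 5 of these 74, behind Ldha, Eif3c and Hmgcs1, and the median was -0.06 (these other genes were named after their values were seen).

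**Figure D3:**
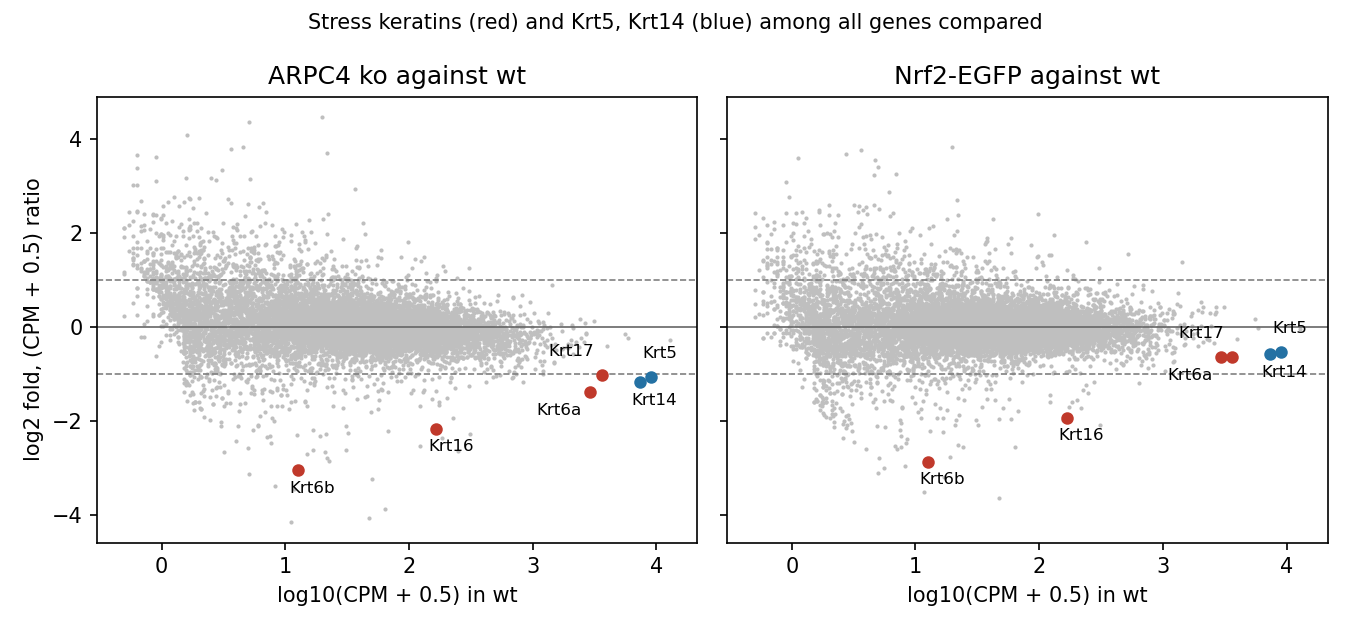
Log2 ratio of CPM + 0.5 against the log10 level in wt for all 11872 genes compared (grey), for ARPC4 ko against wt (left) and Nrf2-EGFP against wt (right), with the stress keratins in red, Krt5 and Krt14 in blue and dashed lines at 2-fold. Krt6b and Krt16 lie at the lower edge of the genes of their level in both panels, and Krt6a and Krt17 lie below most abundant genes, with log2 folds of -1.38 and -1.03 on the left and -0.65 and -0.64 on the right.

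The basal keratins moved with the abundant members. Krt5, the type II keratin of basal cells and the chromosomal neighbour of Krt6a, had 4293 CPM in ARPC4 ko, 6214 CPM in Nrf2-EGFP and 8978 CPM in wt, with log2 folds of -1.06 for ARPC4 ko against wt and -0.53 for Nrf2-EGFP against wt. Krt14, its type I partner, had 3273 CPM in ARPC4 ko, 4905 CPM in Nrf2-EGFP and 7362 CPM in wt, with log2 folds of -1.17 and -0.59 for the same comparisons. Both genes passed the rule in ARPC4 ko against wt only. The simple epithelial pair did not follow. Krt8 had 408 CPM in ARPC4 ko, 591 CPM in Nrf2-EGFP and 473 CPM in wt, and Krt18, its partner, had 189.5, 240.5 and 187.9 CPM in the same libraries. Krt80, a type II keratin of differentiating epithelia, had 58.9 CPM in ARPC4 ko, 86.2 CPM in Nrf2-EGFP and 62.0 CPM in wt. For Krt8, Krt18 and Krt80, log2 folds against wt lay between -0.21 and 0.01 for ARPC4 ko and between 0.32 and 0.47 for Nrf2-EGFP. None of the 3 passed the rule.

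All keratins together held 1.17% of gene counts in ARPC4 ko, 1.58% in Nrf2-EGFP and 2.34% in wt, and the 4 stress keratins 0.309%, 0.412% and 0.663% in the same libraries. Within the keratin pool, the stress keratins kept a similar share, 26.4% (26.2 to 26.5) in ARPC4 ko, 26.05% (25.9 to 26.2) in Nrf2-EGFP and 28.3% (28.2 to 28.4) in wt. The lower total of the stress keratins thus went with a lower total of keratin counts as a whole. The parts differed, however. Krt6a took 10.04% of keratin counts in ARPC4 ko, 11.5% in Nrf2-EGFP and 12.3% in wt, and Krt17 took 15.99%, 14.3% and 15.3% in the same libraries. Krt16 took 0.329% in ARPC4 ko, 0.266% in Nrf2-EGFP and 0.697% in wt. The share of Krt6b was 0.00927% in ARPC4 ko, 0.00762% in Nrf2-EGFP and 0.0511% in wt. Krt5 and Krt14 together stayed near 68% in each library (67.7% in ARPC4 ko, 68.3% in Nrf2-EGFP and 68.6% in wt). Krt8 with Krt18 took 5.35% in ARPC4 ko, 5.11% in Nrf2-EGFP and 2.77% in wt.

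**Figure D4:**
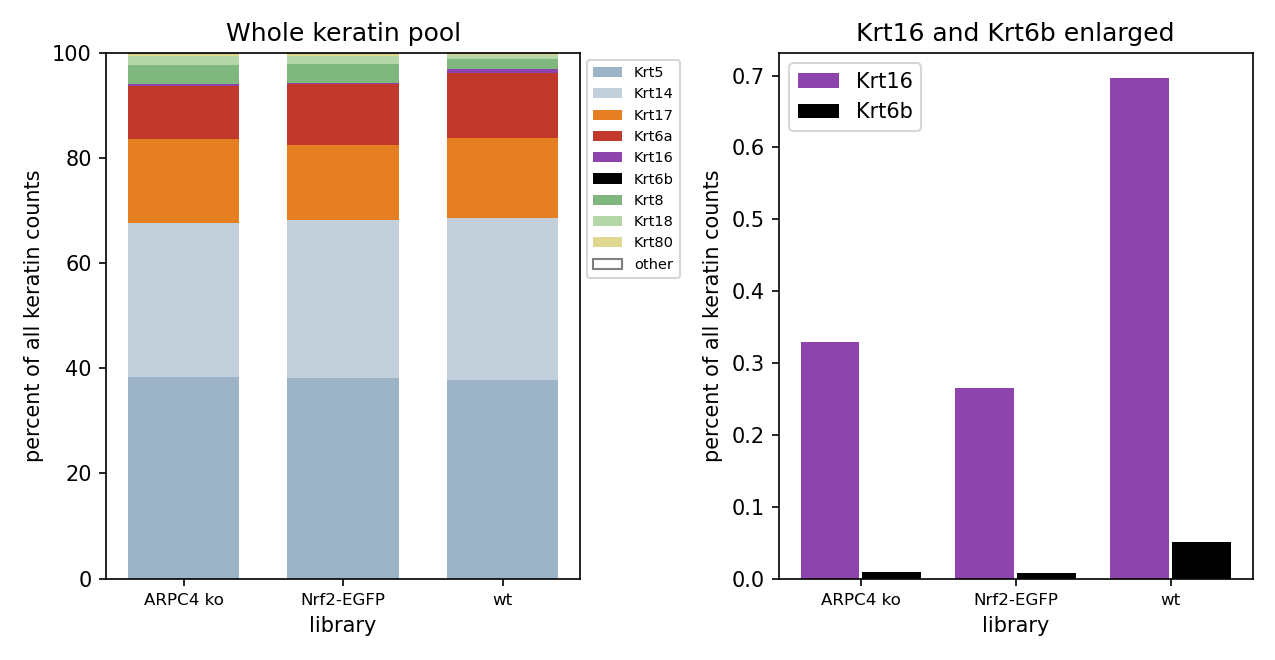
Percent of all keratin counts taken by each keratin, for the libraries ARPC4 ko, Nrf2-EGFP and wt, for the whole pool (left) and for Krt16 and Krt6b on an enlarged axis (right). Krt17 takes 15.99% in ARPC4 ko, 14.3% in Nrf2-EGFP and 15.3% in wt, and Krt6a takes 10.04%, 11.5% and 12.3% in the same libraries. Krt16 takes 0.329% in ARPC4 ko and 0.266% in Nrf2-EGFP, against 0.697% in wt.

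Ratios within a library, which need no scaling, separated the less abundant members, Krt16 and Krt6b, from the abundant members. Krt16 counts per 100 Krt14 counts were 1.12 in ARPC4 ko, 0.882 in Nrf2-EGFP and 2.25 in wt. That ratio was 2.01 times lower (1.87 to 2.16) in ARPC4 ko than in wt and 2.55 times lower (2.39 to 2.73) in Nrf2-EGFP than in wt. Relative to Krt17, Krt16 was 2.22 times lower (2.06 to 2.39) in ARPC4 ko and 2.46 times lower (2.29 to 2.63) in Nrf2-EGFP than in wt. Krt6b relative to Krt5 was 5.61 times lower (3.73 to 8.45) in ARPC4 ko and 6.78 times lower (4.68 to 9.83) in Nrf2-EGFP than in wt. Relative to the abundant keratins of their own clusters, Krt16 and Krt6b were thus lower in ARPC4 ko and in Nrf2-EGFP than in wt by more than counting error.

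For the abundant members the corresponding ratios moved less. Krt6a counts per Krt5 count were 0.261 in ARPC4 ko, 0.300 in Nrf2-EGFP and 0.326 in wt, which is 1.25 times lower (1.23 to 1.27) in ARPC4 ko and 1.08 times lower (1.07 to 1.099) in Nrf2-EGFP than in wt. Krt17 per Krt14 was 0.546 in ARPC4 ko, 0.475 in Nrf2-EGFP and 0.494 in wt, so that it was 1.105 times as high (1.09 to 1.12) in ARPC4 ko as in wt and 0.962 times as high (0.949 to 0.974) in Nrf2-EGFP as in wt. Krt6a per Krt17 was 0.628 in ARPC4 ko, 0.801 in Nrf2-EGFP and 0.803 in wt. The balance of type II to type I stress keratin counts, Krt6a and Krt6b over Krt16 and Krt17, was 0.616 in ARPC4 ko, 0.787 in Nrf2-EGFP and 0.772 in wt. ARPC4 ko thus stood apart with fewer type II counts for each type I count of the stress pair. Over all keratins, type II genes held 52.7% of keratin counts in ARPC4 ko, 53.8% in Nrf2-EGFP and 52.3% in wt.

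Genes that act on or beside the stress keratins were taken as lists from general knowledge of the pathway. Of 28 transcription factors reported at stress keratin genes, 27 were measured. In ARPC4 ko against wt 0 were higher and 2 lower (4.83% and 1.98% of all genes compared), with a median log2 fold of 0.12. In Nrf2-EGFP against wt 0 were higher and 1 lower (3.51% and 2.09% of all genes compared), with a median of -0.02. Tfap2c, an AP-2 factor of basal keratinocytes, fell by 1.35 on the log2 scale in ARPC4 ko (130 counts against 327 in wt) and by 1.22 in Nrf2-EGFP (149 counts against 327 in wt). Gli1, a target and effector of hedgehog signalling, was the other lower factor, with 21 counts in ARPC4 ko, 33 in Nrf2-EGFP and 61 in wt, and passed in ARPC4 ko only. The EGF receptor and its ligands are known to induce these keratins in human keratinocytes, and 9 of 10 were measured. Between ARPC4 ko and wt 0 differed past the rule, where 4.83% of all genes compared were higher and 1.98% lower. Lower in Nrf2-EGFP than in wt was 1 gene (2.09% of all genes compared), Epgn (epigen), with 120.9 CPM in ARPC4 ko, 99.99 CPM in Nrf2-EGFP and 236.5 CPM in wt. The medians of this list were 0.19 for ARPC4 ko and 0.17 for Nrf2-EGFP.

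Of 22 cytokine and receptor genes known as inputs to stress keratins, 18 were measured. Between ARPC4 ko and wt 2 were higher and 0 lower, beside 4.83% and 1.98% of all genes compared. Between Nrf2-EGFP and wt 1 was higher and 0 lower, beside 3.51% and 2.09% of all genes compared. Tnf, an inflammatory cytokine, had 53.2 CPM in ARPC4 ko, 33.3 CPM in Nrf2-EGFP and 13.6 CPM in wt, which was 3.92-fold higher (3.46 to 4.45) in ARPC4 ko and 2.45-fold higher (2.15 to 2.80) in Nrf2-EGFP than in wt. Il1a, the keratinocyte alarmin, had 498 CPM in ARPC4 ko, 429 CPM in Nrf2-EGFP and 243 CPM in wt, and passed in ARPC4 ko only. These genes ran opposite to the stress keratins in direction. The list's median log2 fold against wt was 0.40 for ARPC4 ko and 0.37 for Nrf2-EGFP.

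Other markers of wounded and hyperproliferative epidermis moved in both directions, with 16 of 24 measured. In ARPC4 ko against wt 4 were higher and 2 lower, beside 4.83% and 1.98% of all genes compared. Between Nrf2-EGFP and wt 3 were higher and 3 lower, beside 3.51% and 2.09%. Sprr1b, a cornified envelope precursor that is raised in wounds, was lowest, with 3.85 CPM in ARPC4 ko, 10.4 CPM in Nrf2-EGFP and 63.3 CPM in wt. Its relative Sprr1a had 80 counts in ARPC4 ko, 62 in Nrf2-EGFP and 223 in wt and was lower by the rule in both. Gjb2, a gap junction connexin, had 40 counts in ARPC4 ko, 17 in Nrf2-EGFP and 53 in wt and was lower by the rule in Nrf2-EGFP. Mmp10 (stromelysin 2, a protease of the wound edge) had 138 counts in ARPC4 ko, 113 in Nrf2-EGFP and 36 in wt, higher by the rule in both. Nos2, the inducible nitric oxide synthase, had 111 counts in ARPC4 ko, 32 in Nrf2-EGFP and 3 in wt, a ratio of 34.6 (11.5 to 170) in ARPC4 ko and 9.62 (3.01 to 49.1) in Nrf2-EGFP. Lcn2, the siderophore-binding lipocalin, had 40 counts in ARPC4 ko, 5 in Nrf2-EGFP and 0 in wt, and passed in ARPC4 ko. Plau, the urokinase, named after its values were seen, was the remaining gene that was higher by the rule in both, with 445 CPM in ARPC4 ko, 395 CPM in Nrf2-EGFP and 194 CPM in wt. The list's median log2 fold was 0.12 in ARPC4 ko and 0.42 in Nrf2-EGFP.

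Keratin filaments are anchored at desmosomes, at hemidesmosomes and through cytolinkers such as plectin, and 14 of 15 listed genes of these structures were measured. In each comparison with wt 0 were higher and 1 was lower. Over all genes compared, 4.83% were higher and 1.98% lower in ARPC4 ko, and 3.51% and 2.09% in Nrf2-EGFP. The medians of these 14 genes were -0.46 in ARPC4 ko and -0.24 in Nrf2-EGFP. Dsg3, a desmosomal cadherin of basal layers, had 318 CPM in ARPC4 ko, 413 CPM in Nrf2-EGFP and 680 CPM in wt and was the lower gene in ARPC4 ko. Dsc3, its fellow cadherin, had 332 CPM in ARPC4 ko, 279 CPM in Nrf2-EGFP and 636 CPM in wt and was the lower gene in Nrf2-EGFP. All 11 genes listed for reported protein partners of these keratins were measured, and 0 passed in either comparison. The shares over all genes compared were again 4.83% higher and 1.98% lower in ARPC4 ko, and 3.51% and 2.09% in Nrf2-EGFP. The medians of the partners were -0.09 in ARPC4 ko and 0.01 in Nrf2-EGFP. Sfn (stratifin, named after its values were seen), the Krt17 partner, had 1141 CPM in ARPC4 ko, 1493 CPM in Nrf2-EGFP and 1755 CPM in wt.

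For each member, the genes with the most similar pair of log2 folds against wt were found among 9074 genes with at least 10 CPM in a library, by Euclidean distance over these 2 values. With 3 libraries such likeness is a description of few numbers. The genes nearest to Krt16 were Il1rn (the interleukin 1 receptor antagonist, distance 0.03), Fabp5 (a fatty acid binding protein of the epidermis, 0.05), Adm2, Lpl and Sbsn (0.15). Il1rn had 3.15 CPM in ARPC4 ko, 3.88 CPM in Nrf2-EGFP and 16.2 CPM in wt, and Fabp5 had 34.9, 39.3 and 156.0 CPM in the same libraries. For Krt6b the nearest were Adh7 (distance 0.44), Cdsn (corneodesmosin), Asprv1 (an epidermal aspartic protease), Spink5 (an epidermal protease inhibitor) and Sprr1b (0.89). Few genes had log2 folds as low as Krt6b, gene 8 of 11872 in ARPC4 ko and gene 7 in Nrf2-EGFP. Its 25 counts in ARPC4 ko and 31 in Nrf2-EGFP also leave counting error in these distances, which have no intervals. Spink5 had 0.580 CPM in ARPC4 ko, 0.520 CPM in Nrf2-EGFP and 11.2 CPM in wt. Nearest to Krt6a were C9orf72 (distance 0.10), Cers3 (an epidermal ceramide synthase), F3 (tissue factor), Stbd1 and Cds1 (0.18). Nearest to Krt17 were Cr1l (0.01), Slc6a9, Lss (lanosterol synthase), Gramd3 and Nars (0.04).

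Chromosomal neighbours of the members did not all share their pattern. The type II cluster on chromosome 15, from 101347444 to 102032027, holds 27 keratin genes including the type I gene Krt18, of which 7 passed the filter, and the type I cluster on chromosome 11, from 99232761 to 100269871, holds 27, of which 5 passed. Around Krt6a and Krt6b, Gm5478 had 16 counts in ARPC4 ko, 24 in Nrf2-EGFP and 23 in wt, while Gm5414, Krt75, Krt71 and Krt74 had at most 3 in any library. Krt42, beside Krt17, had 24 counts in ARPC4 ko, 77 in Nrf2-EGFP and 40 in wt, and was lower by the rule in ARPC4 ko than in Nrf2-EGFP. Within 3 gene positions of the members, Krt5, Krt14, Krt42 and Gm5478 were the genes outside the members that passed the filter. Gm5478, with few counts, had log2 folds of -0.39 in ARPC4 ko and -0.06 in Nrf2-EGFP, each against wt. The level of Krt42 in Nrf2-EGFP, 3.08 CPM, was above the 1.24 CPM of Krt6b there. The other neighbours had at most 7 counts in a library.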

How the data were processed

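RNA of 3 keratinocyte cultures, 1 per genotype, was extracted with TRIzol, made into TruSeq Stranded mRNA libraries and read as 65 bp single ends, per the labels' protocols. The submitters' processing notes name TopHat2 2.1.0, Bowtie 1.1, HTSeq and the mm10 build. Their settings, strand included, were not given in the sources used here. What the authors deposited are raw counts of reads per gene with no normalisation. Non-gene totals, left out of library sizes, were 8.22% of entries for ARPC4 ko, 8.48% for Nrf2-EGFP and 9.08% for wt, mostly alignments that were not unique (6.81%, 7.13% and 7.64%).

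Symbols, positions and exon lengths came from GENCODE M21 on GRCm38 (mm10). A symbol was found for 40254 of 41214 identifiers. Comparisons covered genes that reached 1 CPM in any library. Scaling used TMM factors (edgeR 4.0.16, R 4.3.3; 1.05 for ARPC4 ko, 0.971 for Nrf2-EGFP and 0.983 for wt). Log2 folds used a pseudocount of 0.5 CPM. Intervals of ratios, shares and ratios of counts are exact (Clopper-Pearson), those of levels exact Poisson, and those of ratios of ratios log-normal. The counts carry no molecular identifiers, so reads are not independent molecules and intervals cover counting error only. A floor of 3 counts is 0.124 CPM in ARPC4 ko, 0.120 CPM in Nrf2-EGFP and 0.133 CPM in wt. At a count of 0 the exact Poisson interval reaches higher, to 0.153 CPM in ARPC4 ko, 0.148 CPM in Nrf2-EGFP and 0.164 CPM in wt. The steps were tested on simulated Poisson counts with SciPy 1.17.1 and NumPy 2.4.6. These had no spread between cultures, so they do not show how often cultures of the same genotype would differ by the rule. The alternatives were other scaling, among them the size factors of DESeq2 1.42.0, pseudocounts, filters, fold limits, denominators and lengths.

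Named genes were the 4 members, Krt5, Krt14, Arpc4, Nfe2l2, other keratins with at least 10 CPM, genes within 3 positions of a member, up to 6 members of each list past the rule in a comparison with wt, and for each member the 5 genes nearest in pattern, predicted and unnamed genes left out. The members and lists were chosen with earlier results of these data known.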

Additional observations from a re-analysis of the deposited data

How the results depend on the processing

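No paired analysis was possible because each genotype had 1 library and the labels give no shared replicate numbers, and for the same reason no library could be left out. Of 87 alternative log2 folds of the members, 85 kept their direction and their side of the 2-fold limit, and none reversed. The exceptions were Krt17 in ARPC4 ko against wt with upper-quartile factors (-0.99) and with total counts (-0.93), where 3 members passed in each case. Total counts shifted the median over all genes compared by 0.11 in ARPC4 ko against Nrf2-EGFP, by 0.09 in ARPC4 ko against wt and by -0.02 in Nrf2-EGFP against wt. At a 3-fold limit 2 members passed in ARPC4 ko against wt, and at a 1.5-fold limit 4 passed in Nrf2-EGFP against wt and 1 in ARPC4 ko against Nrf2-EGFP. Beside 573 genes higher and 235 lower in ARPC4 ko than in wt, there were 322 and 136 with a pseudocount of 2 CPM, 281 and 110 among genes with at least 10 CPM in a library, 1335 and 708 at a 1.5-fold limit and 191 and 78 at a 3-fold limit. In Nrf2-EGFP against wt the 417 higher and 248 lower became 256 and 104, 242 and 98, 998 and 695, and 134 and 92 under the same alternatives. In ARPC4 ko against Nrf2-EGFP the 247 higher and 107 lower became 84 and 66, 64 and 57, 734 and 379, and 75 and 23. A larger pseudocount and a higher filter remove genes of few counts by construction.

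The share of keratin counts held by the stress keratins was 28.0% in ARPC4 ko, 27.6% in Nrf2-EGFP and 29.2% in wt when only Krt5, Krt14 and the members were counted, and 28.2%, 27.4% and 29.7% in the same libraries per kilobase. Without Krt5 and Krt14 it was 81.6% in ARPC4 ko, 82.1% in Nrf2-EGFP and 90.2% in wt, since Krt8 and Krt18 then form most of the rest. By the longest transcript, Krt6a had 473 CPM per kilobase in ARPC4 ko, 787 in Nrf2-EGFP and 1233 in wt. Counting as length only the windows of 65 bases found at no other annotated gene, Krt6a had 926 in ARPC4 ko, 1540 in Nrf2-EGFP and 2412 in wt, Krt6b 0.853, 1.02 and 10.01, Krt16 35.4, 41.8 and 160.1, and Krt17 1212, 1582 and 2469 in the same libraries. The order of the 4 members was the same under each length. Depth limits Krt6b most, with 25 counts in ARPC4 ko and 31 in Nrf2-EGFP.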

Other observations

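Keratins of suprabasal epidermis, of mucosa and of hair follicle sheaths were scarce in all 3 cultures, unlike the simple epithelial Krt8 and Krt18. No count in any library was found for 22 of the 54 keratin genes. Krt10, the type I keratin of suprabasal epidermis, had 80 counts in ARPC4 ko, 80 in Nrf2-EGFP and 104 in wt. Its type II partner Krt1 had 1 count in ARPC4 ko, 0 in Nrf2-EGFP and 30 in wt, so the ratio for ARPC4 ko against wt was 0.0311 (0.000763 to 0.187). Krt1 thus had its highest count in wt, as Krt6b did. Krt10 was lower than in wt by less than the 2-fold limit. None of the 14 listed mucosal and hair follicle sheath keratins reached 1 CPM in any library.

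On chromosome 11, which holds Krt14, Krt16 and Krt17, alignments that were not unique amounted to 4790 CPM in ARPC4 ko, 5392 CPM in Nrf2-EGFP and 6120 CPM in wt when scaled like gene counts. They were 6.76%, 6.72% and 7.16% of all such alignments in the same libraries. On chromosome 15, which holds Krt5, Krt6a and Krt6b, the corresponding shares were 5.56% in ARPC4 ko, 6.50% in Nrf2-EGFP and 7.70% in wt. The part of these alignments that came from keratin genes was not tested.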
